A study of Mus musculus with 36 samples.

Results

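Py230 mammary tumors were followed from 1 to 3 weeks post-inoculation (w p.i.) by comparing the 3 tumors of 3 w p.i. with the 3 tumors of 1 w p.i., which are 6 of the 36 RNA-seq libraries of the study. The libraries were chosen by their labels alone. Py230 is a cell line grown from a mammary tumor that arose in a C57BL/6 mouse with the MMTV-PyMT transgene, in which a viral promoter active in mammary epithelium drives a viral oncogene. The cells were injected in PBS with Matrigel, a basement membrane gel, through the teat into the third mammary gland of C57BL/6 females just after their pups had been weaned, so every gland had been lactating and was returning to the resting state. The age of the mice at sampling is not in the labels. The 6 C57BL/6 glands of the same weeks that received Matrigel without cells (3 at 1 w p.i. and 3 at 3 w p.i.) were used to look for changes of the gland itself. The 6 tumors of 1 and 3 w p.i. from the BALB/c line 4T1, were used for 1 comparison of changes. They were made by the same injection in BALB/c females, but from another number of cells, which carry firefly luciferase. The model rests on 1 cell line, and the labels do not say whether the tumors came from separate mice. P-values therefore measure the spread of libraries within the 12 groups of the study, which may in part be technical.

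Intraductal injection places tumor cells inside the milk ducts, where they first grow as ductal carcinoma in situ, enclosed by the myoepithelial layer and the basement membrane, and later leave the duct as invasive carcinoma. The study was made to follow this progression. A whole tumor at an early stage holds much of the gland around it, with fat cells, fibroblasts, vessels, muscle and immune cells, and RNA from all of them enters the library. In such a bulk sample, fewer cells of a type and less RNA per cell cannot be told apart.

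The deposited values are scores, log-type expression values that the authors set to a mean of 0 and an SD of 1 within each library, over 21650 genes. A score of 0 is thus the average gene of a library, a difference of 1 is 1 SD of the library's genes, and a difference cannot be turned into a fold change. The depth of the libraries is unknown from these values. A gene is called where limma's moderated test, fitted over all 12 groups of the study, gave a Benjamini-Hochberg adjusted p under 0.05 over all genes. All errors of differences are standard errors (SE) of that fit with 3 tumors per group. For any single gene, an exact permutation test of 3 against 3 tumors cannot go below a two-sided p of 0.10.

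At 1 w p.i., the label of tumor could not be checked against the scores, since the tumors and the Matrigel glands of that week differed in 2 called genes. Both were lower in the tumors and of low level, the antibody light chain segment Igkv3-3 (-0.51) and the pseudogene Hmgb1-ps8 (-0.25), which is 0.00924% of all genes, with 0 (0.00%) called higher, against 993 higher and 554 lower at an unadjusted p under 0.05 (limma). Over all genes, the 3 tumors correlated with these glands with r from 0.963 to 0.991, compared with 0.972 to 0.988 among the 3 tumors. At 3 w p.i., tumors and glands differed in 2773 genes higher (12.8%) and 1494 lower (6.90%) in the tumors. Both comparisons with the glands of the same week were added after the data had been seen. The oncogene itself is not a mouse gene and was not analysed here.

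The 3 tumors of 3 w p.i. stood at different distances from the earlier ones. Tumor 1 correlated with the tumors of 1 w p.i. with r from 0.929 to 0.945, tumor 2 with r from 0.962 to 0.981 and tumor 3 with r from 0.971 to 0.982. Tumor 3 also correlated with the glands of 3 w p.i. with r from 0.980 to 0.991, where tumor 1 had 0.926 to 0.938. Tumor 1 lay farthest from the mean of 1 w p.i. in 96.5% of the genes called higher and 83.6% of those called lower, and tumor 3 lay nearest in 94.4% and 83.0%. Over all genes, called or not, the shares were 68.7% for tumor 1 as farthest and 66.2% for tumor 3 as nearest.

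Between 1 and 3 w p.i., 2768 genes (12.8%) rose and 1552 (7.17%) fell in Py230 tumors. The 3 later values lay wholly above the 3 earlier ones in 4209 genes (19.4%) and wholly below in 2886 (13.3%). Of all 21650 differences, called or not, 12380 were above 0 and 9270 below 0, the base for the counts of signs given below. The same counts were 10603 and 11047 in 4T1 tumors and 10974 and 10676 in the C57BL/6 Matrigel glands. Of the called genes, 64.1% were higher, a share that moved to 53.4% with cyclic loess scaling and to 56.3% after a robust line had been used to rescale the libraries. The calls depended on tumor 1 of 3 w p.i.: without it, 693 genes (3.20%) were called higher and 207 (0.956%) lower, and 894 of these 900 genes were among the calls above with the same direction. Without tumor 3 of 3 w p.i. the counts were 4429 and 2311, and without tumor 3 of 1 w p.i. 1456 and 766. With only the 6 Py230 tumors in the fit, 2 genes were called higher (0.00924%) and 1 lower (0.00462%), against 3066 and 2073 at an unadjusted p under 0.05, so the calls rest on a spread shared with the other groups of the study. Within groups, the median SD over all genes was 0.0502 in the tumors of 1 w p.i., 0.0759 in those of 3 w p.i., and 0.0607 and 0.0405 in the glands.

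**Figure D1:**
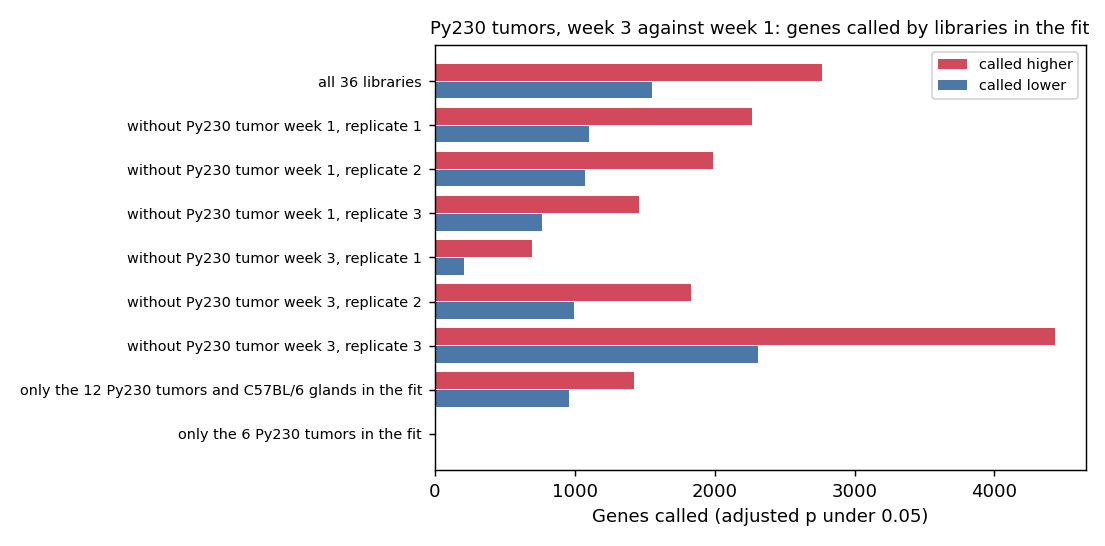
Number of genes called higher (red) or lower (blue) at 3 w p.i. than at 1 w p.i. in Py230 tumors, by the libraries in the fit; the horizontal axis counts genes with an adjusted p under 0.05. The counts are 2768 and 1552 with all 36 libraries, 693 and 207 without tumor 1 of 3 w p.i., 4429 and 2311 without tumor 3 of 3 w p.i., and 2 and 1 with the 6 tumors alone, which is too short a bar to be seen.

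The 3 genes called with the 6 tumors alone were looked up for that reason, after their values had been seen. Car6, a secreted carbonic anhydrase of salivary gland and milk, scored -1.13, -1.41 and -1.43 at 1 w p.i. and 0.58, 0.51 and 0.39 at 3 w p.i., a difference of 1.81 (adjusted p = 0.0239 with the 6 tumors). Scgb2b27, a secretoglobin of a family of near-identical copies, whose reads may therefore be divided among them, went from -1.72, -1.79 and -1.98 to 0.29, 0.22 and -0.077 (difference 1.98, adjusted p = 0.0239). Both were among the lowest genes of the library at 1 w p.i. and reached the average level in all 3 later tumors. Sftpd, a collectin that binds microbes, fell from -0.46, -0.56 and -0.50 to -1.24, -1.18 and -1.19 (adjusted p = 0.0476). A fit of 6 tumors favours genes whose values lie close together within a week. The closeness of the later values in Car6 and Sftpd therefore follows in part from the choice. In Car6 and Scgb2b27 tumor 1 was highest and tumor 3 lowest at 3 w p.i.

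Proliferation was read from genes of DNA replication, which act in S phase, and of mitosis. The promoters of such genes often carry binding sites of E2F factors or, for mitotic genes, the CHR element and CCAAT boxes, both bound in cycling cells by complexes with MYB or NF-Y. In the 200 bases before the start of each gene in the RefSeq promoter table (GRCm38.p6), the E2F motif (TTTCCCGC, TTTCGCGC, TTTGCCGC or TTTGGCGC, both strands) was in 1.83% of 27025 genes, the CHR element (TTTGAA or TTCGAA, both strands) in 15.4%, and CCAAT (both strands) in 32.7%. Of the 34 replication genes measured, 28 had an entry, and the motifs were in 28.6%, 17.9% and 60.7% of them. Of the 30 mitosis genes, 24 had an entry, and the motifs were in 4.17%, 41.7% and 83.3%. Among called members with an entry, the E2F motif was in 2 of 10 replication genes and 0 of 5 mitosis genes. The CHR element was in 2 of 10 and 2 of 5, and CCAAT in 5 of 10 and 4 of 5. Overlapping matches were each counted, and the lists were not picked by their promoters. Among the named members that rose, Rfc3, Aurka and Ube2c had an entry with a match, and their 200 bases are shown 5′ to 3′ on the coding strand, with matches in capitals: an E2F motif and a CHR element in Rfc3 (chr5:151651209-151651408, minus strand), 2 CCAAT boxes in Aurka (chr2:172370571-172370770, minus strand), and a CHR element and 5 CCAAT boxes, some overlapping and on both strands, in Ube2c (chr2:164769729-164769928, plus strand). Tyms, Tk1 and Birc5, which also rose and are named below, had an entry with 0 matches to E2F, CHR or CCAAT, and their bases are not shown. The starts are those of RefSeq. The last bases shown for Ube2c, with the CHR element, lie inside the gene coordinates given below, which come from another reference. A match is a description of these letters and not evidence of binding.
Rfc3: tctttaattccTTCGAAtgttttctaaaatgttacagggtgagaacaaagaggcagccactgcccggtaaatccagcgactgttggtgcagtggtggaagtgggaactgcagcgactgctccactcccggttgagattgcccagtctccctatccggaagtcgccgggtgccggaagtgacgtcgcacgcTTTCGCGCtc
Aurka: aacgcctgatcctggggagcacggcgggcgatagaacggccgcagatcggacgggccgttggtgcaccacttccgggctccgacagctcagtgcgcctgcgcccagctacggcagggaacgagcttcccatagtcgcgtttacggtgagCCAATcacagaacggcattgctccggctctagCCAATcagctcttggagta
Ube2c: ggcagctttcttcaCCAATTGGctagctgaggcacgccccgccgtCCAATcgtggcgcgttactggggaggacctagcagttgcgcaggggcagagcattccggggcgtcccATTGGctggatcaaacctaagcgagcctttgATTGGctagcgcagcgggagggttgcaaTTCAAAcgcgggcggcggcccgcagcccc

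Genes of DNA replication were higher at 3 w p.i. Of 34 measured members, 11 rose and 0 fell, beside 12.8% and 7.17% of all genes, and all 34 differences were above 0, with a median of 0.24 beside 0.022 over all genes. Tyms, the enzyme that makes thymidylate for DNA (chr5:30058202-30073617), scored -0.10, -0.16 and -0.21 at 1 w p.i. and 0.49, 0.31 and 0.029 at 3 w p.i. (difference 0.43 ± 0.098, adjusted p = 0.00363). Tk1, thymidine kinase of dividing cells, scored 0.22, 0.19 and 0.15 and then 0.97, 0.71 and 0.38 (0.50 ± 0.13, adjusted p = 0.00765). In both genes the later tumors were ordered 1, 2, 3 from the highest down, and tumor 3 lay just above the earlier range. Rfc3, a subunit of the clamp loader, rose by 0.30 ± 0.074 (adjusted p = 0.00628) and Ccne2, a cyclin of S phase entry, by 0.34 ± 0.089 (adjusted p = 0.00828). Of the helicase subunits Mcm2 to Mcm7, 0 were called, with differences from 0.071 (Mcm7) to 0.36 (Mcm5).

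Mitosis genes had larger differences and fewer calls. Of 30 measured members, 7 rose and 0 fell, beside 12.8% and 7.17% of all genes. All 30 differences were above 0, with a median of 0.40, and 20 had later values wholly above the earlier ones, beside 19.4% of all genes. Aurka, a kinase of spindle assembly (chr2:172356190-172370535), scored -0.089, -0.084 and -0.078 at 1 w p.i. and 0.64, 0.39 and 0.13 at 3 w p.i. (0.47 ± 0.13, adjusted p = 0.0124). Birc5, survivin, a subunit of the chromosomal passenger complex, went from -0.16, 0.12 and -0.10 to 0.89, 0.62 and 0.30 (0.65 ± 0.19, adjusted p = 0.019). Ube2c, which marks mitotic cyclins for degradation (chr2:164769898-164778822), went from 0.10, 0.17 and 0.079 to 0.81, 0.60 and 0.27 (0.44 ± 0.15, adjusted p = 0.0328). In all 3 genes tumor 1 was highest and tumor 3 lowest, without overlap with 1 w p.i. Cdc25c, the phosphatase that starts mitosis, rose by 0.59 ± 0.18 (adjusted p = 0.0207). Mki67, which encodes the proliferation marker Ki-67, scored 0.92, 0.94 and 0.90 and then 1.59, 1.30 and 0.99 and was not called (difference 0.38 ± 0.20, adjusted p = 0.18).

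Neither list kept a call without tumor 1 of 3 w p.i., where the median differences were 0.13 for replication and 0.26 for mitosis. The mean score of the mitosis list was 0.058, 0.11 and 0.055 in the 3 tumors of 1 w p.i. and 0.75, 0.51 and 0.16 in tumors 1, 2 and 3 of 3 w p.i., and that of the replication list 0.15, 0.094 and 0.060 and then 0.56, 0.38 and 0.12. The deposited hallmark lists of the authors gave 51 of 191 E2F target genes higher and 1 lower, 46 of 189 G2M checkpoint genes higher and 6 lower, and 64 of 180 genes of the first MYC target list higher and 0 lower, beside 12.8% and 7.17% of all genes. Without tumor 1, the genes called higher were 5 of the E2F, 8 of the G2M and 11 of the MYC list, beside 3.20% of all genes. The hallmark lists share members with each other and with the lists above. Of 24 genes of ribosome biogenesis, with Myc among them, 2 rose, Bop1 (0.14) and Wdr12 (0.16), both factors that process the large ribosomal subunit, and the median was 0.062. Myc itself had a difference of -0.12 (adjusted p = 0.288).

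Among 18 inhibitors of the cell cycle, 2 rose and 2 fell, beside 12.8% and 7.17% of all genes, with a median of -0.0051. Cdkn2a, the locus of the tumor suppressors p16 and p19ARF (chr4:89274471-89294653), scored -1.50, -1.10 and -1.35 at 1 w p.i. and -0.041, -0.072 and -0.60 at 3 w p.i. (1.08 ± 0.12, adjusted p = 1.92e-06). All 3 later values lay above the earlier ones, and the difference without tumor 1 was 0.98 (adjusted p = 5.38e-05). Its neighbour Cdkn2b, which encodes p15, rose by 0.35 ± 0.090 (adjusted p = 0.00824). Rbl2, a pocket protein of resting cells, fell from 1.03, 1.03 and 1.02 to 0.84, 0.85 and 0.96 (-0.14 ± 0.031, adjusted p = 0.00291). Gadd45b, a stress response gene, fell (difference -0.35 ± 0.097, adjusted p = 0.013).

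The 10 largest rises were taken among called genes whose tumor values did not overlap and whose higher group had a mean score of at least 0.5, and in each of them tumor 1 was highest and tumor 3 lowest at 3 w p.i. Bhlha15, a transcription factor of secretory cells (chr5:144190286-144194441), scored -0.60, -0.15 and -0.24 at 1 w p.i. and 1.32, 1.10 and 0.68 at 3 w p.i. (1.36 ± 0.14, adjusted p = 5.31e-07). Pik3r3, a regulatory subunit of phosphoinositide 3-kinase (chr4:116221618-116303056), had the smallest p-value of the 10, with 0.30, 0.29 and 0.17 and then 1.56, 1.30 and 0.92 (1.01 ± 0.093, adjusted p = 6.09e-08). Since the limits required values without overlap, tumor 3 of 3 w p.i. lay above the earlier range by the choice of genes. Esrrg, an orphan nuclear receptor, scored -0.35, -0.40 and -0.23 and then 0.88, 0.62 and 0.38 (0.95 ± 0.12, adjusted p = 1.02e-05). Cldn2, a claudin that forms pores in tight junctions, scored -0.63, -0.55 and -0.69 and then 0.93, 0.46 and 0.17 (1.14 ± 0.20, adjusted p = 0.000417). Il20rb, a receptor subunit for cytokines of the interleukin-20 group, scored -0.50, -0.22 and -0.36 and then 0.94, 0.73 and 0.35 (1.03 ± 0.18, adjusted p = 0.000301). These 3 genes, too, were separated between the weeks by that choice. The others were Tnfrsf19 (1.30), a receptor of the tumor necrosis factor family, Emid1 (1.26), a secreted protein with an EMI domain, Atp6v1c2 (1.05), a subunit of the vesicular proton pump, Sidt1 (0.95), a membrane protein, and the collagen gene Col11a1, described with the matrix. All 10 remained called without tumor 1, with differences from 0.79 (Sidt1) to 1.22 (Bhlha15) and adjusted p from 2.09e-07 (Pik3r3) to 0.00989 (Cldn2). The genes had been picked as the largest rises in the same tumors, so this is not a separate test of them.

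**Figure D2:**
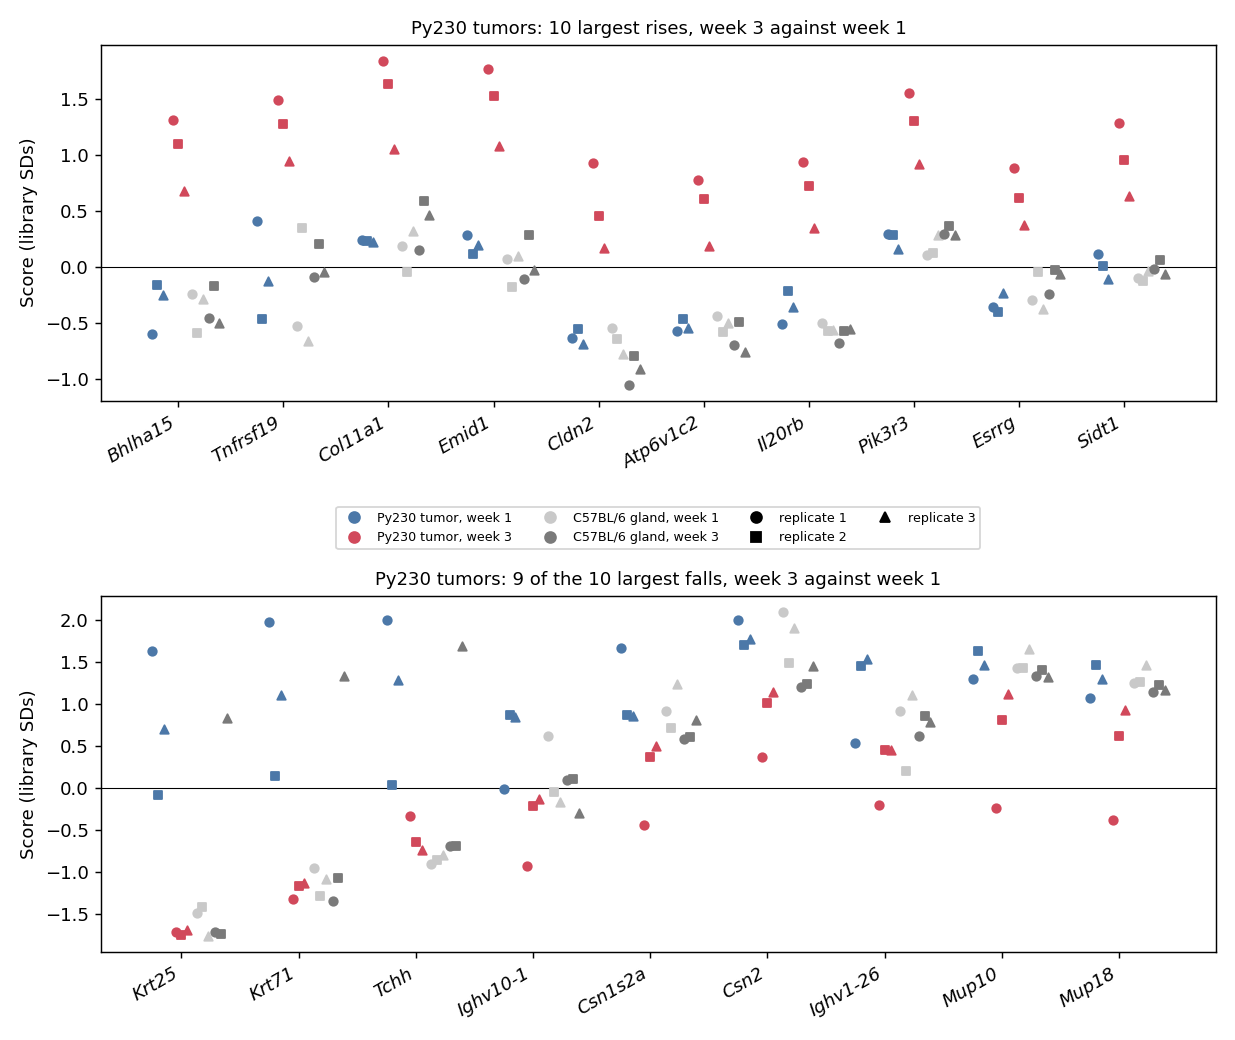
Scores of the 10 largest rises (upper panel) and 9 of the 10 largest falls (lower panel) between 1 and 3 w p.i. in Py230 tumors; the vertical axis is the score in library SDs, each point is 1 library, colours mark Py230 tumors and C57BL/6 Matrigel glands of both weeks, and shapes mark the replicate number. In all 10 rises the red points of 3 w p.i. lie above all others, in the order of tumors 1, 2 and 3. Their place above the tumors of 1 w p.i. follows from how the genes were chosen. In the falls, the hair genes Krt25, Krt71 and Tchh are high in tumors 1 and 3 of 1 w p.i. and in 1 gland of 3 w p.i., and tumor 1 of 3 w p.i. is lowest in the other genes.

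Of 25 hormone receptors and luminal regulators, 3 rose and 2 fell, shares close to the 12.8% and 7.17% of all genes. Spdef, an ETS factor of secretory epithelium, scored -0.65, -0.81 and -0.81 at 1 w p.i. and 0.53, 0.33 and -0.10 at 3 w p.i. (1.01 ± 0.12, adjusted p = 2.99e-06), and Ehf, an epithelial ETS factor, scored 1.31, 1.23 and 1.27 and then 2.18, 1.96 and 1.67 (0.67 ± 0.11, adjusted p = 0.000249). Both were called without tumor 1 as well. Sox10, a factor of both neural crest and mammary progenitor cells, rose by 0.31 ± 0.090 (adjusted p = 0.0173), while Egfr (difference -0.30) and the T-box factor Tbx3 (-0.36) fell. The estrogen receptor gene Esr1 (difference -0.19, adjusted p = 0.289), the progesterone receptor gene Pgr (-0.31, adjusted p = 0.435) and Erbb2 (0.049, adjusted p = 0.697) were not called. Of 19 members of the luminal epithelium list, 3 rose (Ehf, the splicing factor Esrp1 with 0.42, and the claudin Cldn3 with 0.35) and 1 fell. The member that fell was Cdh3 (difference -0.67 ± 0.17), P-cadherin, which is better known as a marker of the basal layer. These shares, too, were close to the 12.8% and 7.17% of all genes. The keratin genes Krt8 (-0.0087) and Krt18 (-0.12) and Epcam (0.031) were not called, and the mean score of the luminal list was 1.22, 1.15 and 1.15 at 1 w p.i. and 1.21, 1.26 and 1.20 at 3 w p.i., with overlap.

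Of 24 genes of hypoxia and glycolysis, 3 rose and 2 fell, shares close to the 12.8% and 7.17% of all genes. Without tumor 1 of 3 w p.i. 2 were called higher and 0 lower, beside 3.20% and 0.956% of all genes. Car9, carbonic anhydrase IX, a target of the hypoxia-inducible factor (chr4:43506966-43513729), scored -0.90, -0.71 and -0.58 at 1 w p.i. and 0.77, 0.49 and 0.041 at 3 w p.i. (1.16 ± 0.16, adjusted p = 1.61e-05). Its relative Car12 scored 0.57, 0.59 and 0.63 and then 1.85, 1.48 and 1.08 (0.87 ± 0.15, adjusted p = 0.000369), and Egln3, an oxygen sensor and itself a hypoxia target, 0.56, 0.26 and 0.32 and then 1.29, 1.03 and 0.78 (0.66 ± 0.18, adjusted p = 0.0144). All 3 were separated between the weeks, with tumor 1 highest. Other hypoxia targets were not called higher. Adm, adrenomedullin (-0.29), and Ndrg1 (-0.23) fell, and the glucose transporter Slc2a1 (0.091), Pgk1 (0.072), Ldha (0.10) and Vegfa (-0.080) were not called. Of the 24 differences 14 were above 0, beside 12380 of 21650 over all genes. Of the 24, 9 had later values wholly above the earlier ones, beside 19.4% of all genes.

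Genes of the stromal matrix fell together. Of 30 fibrillar collagens and matrix proteins, 20 fell and 1 rose, beside 7.17% and 12.8% of all genes, with a median difference of -0.38, and 25 had later values wholly below the earlier ones, beside 13.3% of all genes. Col1a1, the main chain of type I collagen (chr11:94936224-94953042), scored 2.75, 2.92 and 3.02 at 1 w p.i. and 2.30, 2.29 and 2.36 at 3 w p.i. (-0.58 ± 0.15, adjusted p = 0.00798). Fbln2, fibulin 2 (chr6:91212455-91272540), scored 1.59, 1.58 and 1.67 and then 1.02, 1.20 and 1.34 (-0.43 ± 0.087, adjusted p = 0.00151), and Col6a3, a chain of type VI collagen, 1.75, 1.96 and 2.00 and then 1.22, 1.40 and 1.64 (-0.49 ± 0.11, adjusted p = 0.00318). In all 3 genes every later tumor lay below every earlier one, and in Col1a1 the 3 later tumors lay close together. Col14a1 (-0.53), Col5a1 (-0.46) and the fibril-binding Lum (-0.58) fell as well. The exception was Col11a1, a minor fibrillar collagen chain (chr3:114030540-114220718), which scored 0.24, 0.23 and 0.23 and then 1.84, 1.63 and 1.06 (1.28 ± 0.15, adjusted p = 2.33e-06) and rose in all 3 tumors. Without tumor 1 of 3 w p.i., Col11a1 (adjusted p = 5.38e-05) and Fbln2 (adjusted p = 0.0317) were the only members called, and the median was -0.31.

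Enzymes that remodel matrix and mesenchymal regulators moved the same way. Of 24 proteases and inhibitors, 12 fell and 0 rose, beside 7.17% and 12.8% of all genes, with a median of -0.35. Mmp14, a membrane-bound collagenase (chr14:54431612-54445364), scored 1.89, 1.94 and 2.04 at 1 w p.i. and 1.29, 1.51 and 1.59 at 3 w p.i. (-0.49 ± 0.099, adjusted p = 0.00132). Adam12, a metalloprotease, had the smallest p-value of the list, with 0.86, 1.04 and 1.03 and then 0.29, 0.47 and 0.54 (-0.54 ± 0.088, adjusted p = 0.00018). The procollagen protease Adamts2 (-0.53), the inhibitor Timp2 (-0.43) and the gelatinase Mmp2 (-0.66) also fell, and these 5 genes were the ones called without tumor 1. Of 22 genes of epithelial-mesenchymal transition (EMT), 13 fell and 1 rose, with a median of -0.23. Vim, vimentin, scored 2.24, 2.33 and 2.36 and then 1.84, 2.04 and 2.17 (-0.30 ± 0.075, adjusted p = 0.00796), and Fap, a protease of activated fibroblasts, 0.69, 0.75 and 0.76 and then 0.15, 0.36 and 0.53 (-0.38 ± 0.10, adjusted p = 0.00882). The transcription factors Snai2 (-0.38), Zeb1 (-0.28), Zeb2 (-0.25) and Twist2 (-0.31) fell, Snai1 (-0.093) and Twist1 (-0.16) were not called, and the growth factor Tgfb2 rose (0.33). In the deposited hallmark list of EMT, 71 of 183 genes fell and 5 rose, beside 7.17% and 12.8% of all genes. Without tumor 1, 1 of the 22 and 12 of the 183 were called lower, beside 0.956% of all genes.

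Fibroblasts express most of these genes, and markers of fibroblasts moved with them. Of 16 fibroblast markers, some of which are matrix genes counted above, 12 fell and 0 rose, beside 7.17% and 12.8% of all genes. All 16 differences were below 0, and the median was -0.53. The mean score of this list was 1.80, 1.79 and 1.80 at 1 w p.i. and 0.97, 1.40 and 1.55 at 3 w p.i., and its lowest value was that of tumor 1. Without tumor 1, 0 were called, beside 0.956% of all genes lower, and the median was -0.30. The mean score of 24 adipocyte markers was 1.81, 1.97 and 1.78 at 1 w p.i. and 0.62, 1.74 and 2.00 at 3 w p.i., so that tumor 1 held the lowest fat cell signal, and 0 were called. For 17 genes of skeletal muscle the means were 1.19, 0.34 and 1.52 and then -0.73, 0.24 and 1.71, and 0 were called. The part of these tissues in the falls of matrix genes was not tested.

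**Figure D3:**
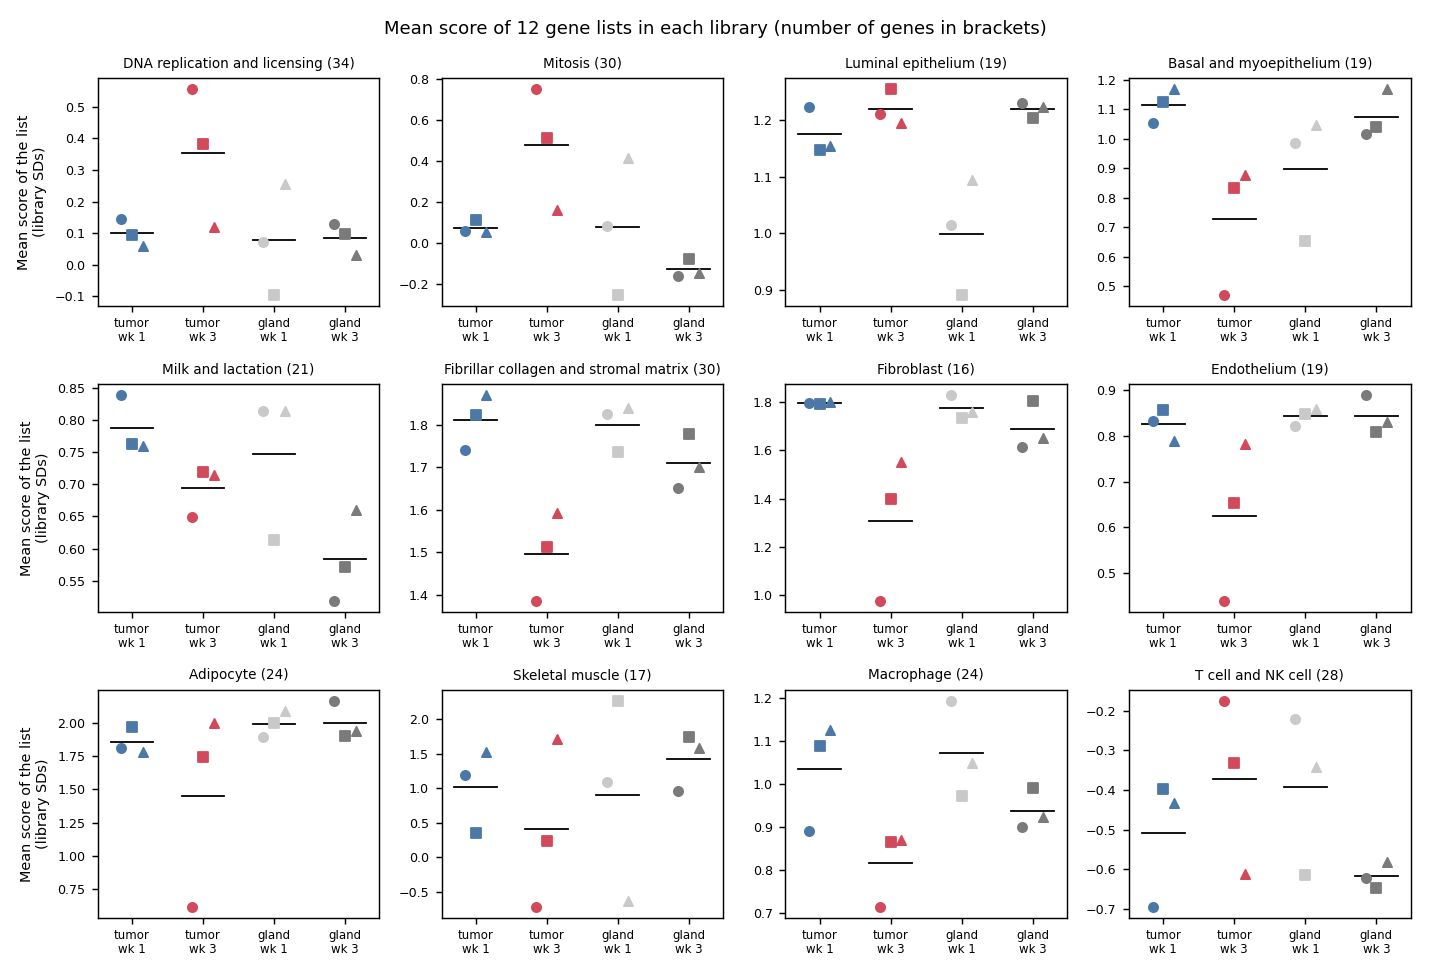
Mean score of 12 gene lists in each library; every panel is 1 list with the number of its genes, the vertical axis is the mean score in library SDs and differs between panels, points are libraries of Py230 tumors and C57BL/6 Matrigel glands at 1 and 3 w p.i., shapes mark the replicate number, and bars are group means. The mitosis list goes from 0.058, 0.11 and 0.055 to 0.75, 0.51 and 0.16 in tumors 1, 2 and 3, while fibroblast markers go from 1.80, 1.79 and 1.80 to 0.97, 1.40 and 1.55 and adipocyte markers are low in tumor 1 of 3 w p.i.

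Markers of the basal layer, the contractile cells that surround the duct, were lower at 3 w p.i. Of 19 measured members, 9 fell and 1 rose, beside 7.17% and 12.8% of all genes, with a median difference of -0.51. Trp63, the master factor of basal cells, scored 1.14, 1.04 and 1.09 at 1 w p.i. and 0.68, 0.78 and 0.79 at 3 w p.i. (-0.34 ± 0.12, adjusted p = 0.0464). Krt17, a basal keratin, scored 1.17, 0.89 and 0.92 and then 0.13, 0.56 and 0.52 (-0.59 ± 0.19, adjusted p = 0.0334), and Oxtr, the oxytocin receptor that drives milk ejection, 1.68, 1.75 and 1.76 and then 0.63, 1.40 and 1.64 (-0.51 ± 0.18, adjusted p = 0.0427). In these 3 genes the later tumors lay wholly below the earlier ones. The smooth muscle genes Acta2 (-0.55), Myh11 (-0.67) and Tagln (-0.41), which pericytes of vessels express too, also fell. Krt5 (difference -0.60 ± 0.24, adjusted p = 0.0724) and Krt14 (-0.57 ± 0.23, adjusted p = 0.0765), the defining keratins of the layer, were not called. The member that rose was Igfbp2, an insulin-like growth factor binding protein (0.033, 0.71 and 0.71, then 1.65, 1.45 and 0.74). Without tumor 1 of 3 w p.i., 0 of the 19 were called, beside 3.20% of all genes higher and 0.956% lower. The median was then -0.30, and in the glands the median change was 0.21.

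Milk genes did not move as a group. Of 21 members, 5 fell and 2 rose, beside 7.17% and 12.8% of all genes, with a median of 0.010. Csn2, beta-casein, the main milk protein (chr5:87692624-87699630), scored 2.00, 1.70 and 1.78 at 1 w p.i. and 0.38, 1.02 and 1.14 at 3 w p.i. (-0.98 ± 0.19, adjusted p = 0.000735), and the casein genes Csn1s2a (-0.99 ± 0.20, adjusted p = 0.00167) and Csn1s1 (-0.65 ± 0.16, adjusted p = 0.00562) fell too. Tumor 1 of 3 w p.i. was lowest in all 3. In the Matrigel glands Csn2 scored 2.09, 1.49 and 1.90 and then 1.21, 1.24 and 1.46 (difference -0.53, adjusted p = 0.517), and its changes in tumors and glands were not called different (-0.45, adjusted p = 0.305). Olah, a thioesterase that sets the chain length of milk fatty acids, rose from -1.56, -1.13 and -1.04 to -0.28, -0.38 and -0.67 (0.80 ± 0.13, adjusted p = 0.000125), while in the glands it had a difference of -0.36, and these changes differed (1.16 ± 0.18, adjusted p = 0.000515). Slc34a2, a phosphate transporter of the secretory epithelium, rose by 0.63 ± 0.17 (adjusted p = 0.0106). The whey protein gene Wap (0.26), Csn3 (0.27) and Lalba (0.058) were not called.

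Of 27 genes of post-weaning involution, 5 fell and 0 rose, beside 7.17% and 12.8% of all genes. Saa1, an acute phase protein, scored 0.74, 0.033 and -0.029 at 1 w p.i. and -1.10, -0.83 and -0.56 at 3 w p.i. (-1.08 ± 0.18, adjusted p = 0.000224), and Saa2, its close paralog with which it may share reads, -0.11, -0.78 and -0.73 and then -1.35, -1.30 and -1.32 (-0.78 ± 0.16, adjusted p = 0.00196). Saa1 also fell in the Matrigel glands, from 0.18, 0.17 and 0.11 to -0.72, -0.59 and -0.84 (-0.87, adjusted p = 0.0428), and the changes were not called different (-0.21, adjusted p = 0.652). Spp1, osteopontin (-0.66), Ctsl, a lysosomal protease (-0.34), and Mmp2 fell as well. The involution factors Stat3 (-0.093), Cebpd (-0.20) and Socs3 (-0.27) were not called.

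The 10 largest falls, of which 9 are described, were chosen by the same limits and included genes of hair, antibodies, urinary proteins and milk. Krt25, a keratin of the inner root sheath of hair, scored 1.64, -0.077 and 0.70 at 1 w p.i. and -1.71, -1.74 and -1.69 at 3 w p.i. (-2.47 ± 0.61, adjusted p = 0.00672). Krt71 (-2.28 ± 0.62) and Tchh (-1.67 ± 0.55), of the same sheath, had the same pattern, with the highest values in tumors 1 and 3 of 1 w p.i. In the glands, Krt25 scored -1.48, -1.41 and -1.76 at 1 w p.i. and -1.72, -1.73 and 0.84 at 3 w p.i., so that 1 gland of the later week was high as well. Of 16 keratinocyte and hair genes, 4 fell, these 3 and Krt27, beside 7.17% of all genes. The epidermal keratins Krt1 (-0.078) and Krt10 (-0.071) were not called. The mean score of the 16 was -0.12, -0.97 and -0.60 and then -1.26, -1.32 and -1.39, and the amount of skin in each sample was not given. Ighv10-1 (-0.99) and Ighv1-26 (-0.94) are variable segments of antibody heavy chains, and Mup10 (-0.90) and Mup18 (-0.89) are major urinary proteins. Both families have near-identical members that share reads, so that single genes are uncertain. Csn1s2a and Csn2, the caseins, complete the 9. Without tumor 1 of 3 w p.i., Krt25, Csn1s2a and Csn2 were still called, with adjusted p of 0.0426, 0.0377 and 0.0177, and the other 6 were not, with adjusted p from 0.076 (Krt71) to 0.401 (Mup10).

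Vessel genes were lower in part. Of 19 endothelial markers, 6 fell and 0 rose, beside 7.17% and 12.8% of all genes. All 19 differences were below 0, and the median was -0.18. Pecam1, which encodes the endothelial protein CD31, scored 1.49, 1.50 and 1.44 at 1 w p.i. and 1.15, 1.27 and 1.42 at 3 w p.i. (-0.20 ± 0.046, adjusted p = 0.00405), and Eng, a coreceptor for TGF-beta, 1.31, 1.30 and 1.32 and then 1.02, 1.13 and 1.23 (-0.18 ± 0.039, adjusted p = 0.00235). In both, tumor 3 of 3 w p.i. lay closest to the earlier range and below it. Of 21 angiogenic ligands and receptors, 6 fell and 1 rose, beside the same shares of all genes. Apln, the ligand of the apelin receptor made by sprouting endothelium, scored -0.081, 0.29 and 0.15 and then 1.01, 0.86 and 0.52 (0.68 ± 0.15, adjusted p = 0.00299). Angptl2 (-0.37), the lymphatic growth factor Vegfd (-0.52) and the coreceptors Nrp1 (-0.21) and Nrp2 (-0.23) fell, and the receptors Kdr (-0.13) and Flt1 (-0.076) were not called. Of 12 pericyte and smooth muscle genes, 4 fell, beside 7.17% of all genes. Without tumor 1, 0 endothelial markers and 0 pericyte and smooth muscle genes were called, and Apln and Angptl2 were called among the angiogenic genes. In that setting, 3.20% of all genes were called higher and 0.956% lower.

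**Figure D4:**
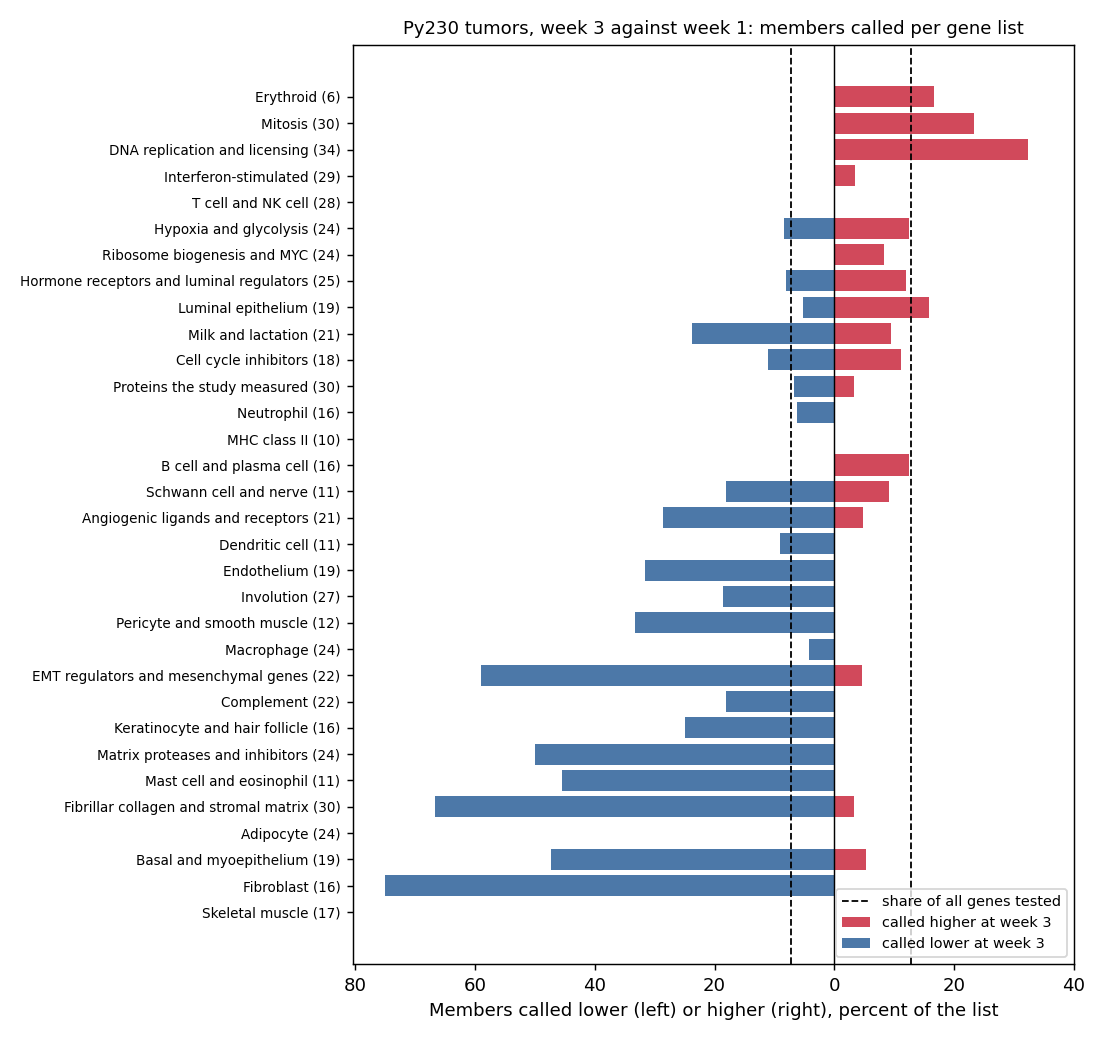
Percent of the members of 32 gene lists called lower (blue, left) or higher (red, right) at 3 w p.i. than at 1 w p.i. in Py230 tumors, with the number of members in brackets and lists ordered by their median difference; dashed lines mark the shares over all genes, 7.17% lower and 12.8% higher. Fibroblast (12 of 16), stromal matrix (20 of 30), EMT (13 of 22) and matrix protease (12 of 24) lists reach farthest to the left, and the DNA replication list (11 of 34) farthest to the right.

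Immune genes had few calls, beside 12.8% of all genes called higher and 7.17% lower. For their counts of signs, 12380 of the 21650 differences over all genes were above 0. Of 28 genes of T and NK cells, 0 were called, 23 differences were above 0 and the median was 0.17, with mean scores of -0.70, -0.40 and -0.43 at 1 w p.i. and -0.17, -0.33 and -0.61 at 3 w p.i. that overlapped. Of 29 interferon-stimulated genes, Ddx58, the RNA sensor RIG-I, rose (0.28 ± 0.075, adjusted p = 0.0108), 27 differences were above 0 and the median was 0.17. The mean score of this list was 0.48, 0.73 and 0.88 and then 1.01, 0.94 and 0.72, and the order of the later tumors was again 1, 2, 3. Of 10 MHC class II genes, 0 were called. Of 24 macrophage markers, Mertk, a receptor for the uptake of dying cells, fell (-0.28 ± 0.086, adjusted p = 0.0254), and 22 differences were below 0. Of 11 dendritic cell markers, Clec10a, a lectin also found on macrophages, fell (-0.50), and of 16 neutrophil genes Mmp9, which is described with the measured proteins.

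Part of the mast cell genes fell. Of 11 members, 5 fell and 0 rose, beside 7.17% and 12.8% of all genes. All 11 differences were below 0, and the median was -0.36. Tpsb2, a mast cell tryptase (chr17:25366305-25369098), scored 1.00, 0.68 and 0.70 at 1 w p.i. and -0.22, 0.18 and 0.46 at 3 w p.i. (-0.65 ± 0.13, adjusted p = 0.00112). The granule proteases Cma1 (0.93, 0.76 and 0.78, then -0.22, 0.23 and 0.52), Mcpt4 (-0.65) and Cpa3 (-0.64) and the IgE receptor gene Fcer1a (-0.36) also fell. Every later tumor lay below every earlier one in these 5 genes, tumor 1 of 3 w p.i. was lowest in all 5, and without it only Tpsb2 was called (adjusted p = 0.0259). Of 16 B cell and plasma cell genes, 2 rose, a share close to the 12.8% of all genes. Pax5, a B cell factor, went from -1.55, -1.49 and -1.36 to -0.20, -0.68 and -0.72 (0.93 ± 0.13, adjusted p = 2e-05), while the B cell genes Ms4a1 (-0.0070) and Cd79a (-0.15) were not called. Fcer2a, a low affinity IgE receptor of very low level, rose by 0.14 ± 0.049 (adjusted p = 0.0408). Of 22 complement genes, C3 (-0.52), C1s1 (-0.39), C1ra (-0.35) and the inhibitor gene Serping1 (-0.34) fell and 0 rose, beside 7.17% and 12.8% of all genes. All 4 lost their call without tumor 1, where 0.956% of all genes were called lower.

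Genes of early response, switched on within minutes by growth factors or by handling of tissue, were lower in part: of 20, 5 fell and 0 rose, beside 7.17% and 12.8% of all genes, with a median of -0.22. Without tumor 1 of 3 w p.i. 1 was called lower, beside 0.956% of all genes. Klf4, a factor of epithelial and vascular cells, went from 1.24, 1.26 and 1.27 to 0.60, 0.76 and 1.09 (-0.44 ± 0.10, adjusted p = 0.00353), and Klf2, a factor of endothelium, from 0.98, 0.996 and 0.95 to 0.62, 0.59 and 0.73 (-0.33 ± 0.078, adjusted p = 0.00469). The RNA decay factor Zfp36 (-0.32), the factor Egr2 (-0.35) and the phosphatase Dusp1 (-0.34) fell as well, while Fos (-0.27) and Jun (-0.0052) were not called. Of 6 red cell genes, Alas2, the first enzyme of heme synthesis in red cells, rose (0.53 ± 0.18, adjusted p = 0.0359), with 0.55 in the glands. Of 11 Schwann cell and nerve genes, 2 fell, among them Pmp22 (-0.34), and Sox10 rose, and of 13 mitochondrial genes 0 were called.

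The proteins of a set of 30 genes were also measured by other assays on these models. Of this set Car9 rose and Pecam1 and Mmp9 fell, beside 12.8% and 7.17% of all genes. Mmp9, a gelatinase of neutrophils and stroma, scored 0.72, 0.57 and 0.69 at 1 w p.i. and -0.68, 0.32 and 0.48 at 3 w p.i. (-0.62 ± 0.21, adjusted p = 0.0408). Tumor 1 set this call, and without it the difference was -0.26 (adjusted p = 0.488). Lcn2, lipocalin 2, scored 2.41, 2.23 and 2.25 and then 2.67, 2.57 and 2.30 (difference 0.21 ± 0.13, adjusted p = 0.243), and the leukocyte gene Ptprc 1.07, 1.42 and 1.49 and then 1.37, 1.30 and 1.15 (difference -0.053 ± 0.14, adjusted p = 0.827). Both pairs of groups overlapped. The T cell genes Cd3e (0.28), Cd8a (0.18) and Cd4 (-0.062), the cytotoxic granule gene Gzmb (0.31), the checkpoint gene Pdcd1 (0.24) and the macrophage genes Adgre1 (-0.20) and Cd163 (-0.49) were not called. Among the cytokines, Il6 (-0.18), Il1b (-0.052), Tnf (-0.046), Ccl2 (-0.082) and Vegfa were not called.

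The Matrigel glands were compared between the same weeks to see whether the gland itself had changed. In them 20 genes (0.0924%) rose and 8 (0.0370%) fell, against 841 and 570 at an unadjusted p under 0.05 (limma). They included variable segments of antibody genes, whose reads may be shared between copies, and Lalba, alpha-lactalbumin, fell (difference -0.63 ± 0.12, adjusted p = 0.0231). Of the list members, Saa1 and Lalba were the ones called in the glands. None of the 10 largest rises of the tumors was called there, with differences in the glands from -0.26 (Cldn2) to 0.30 (Tnfrsf19). Differences in the glands of the mitosis list had a median of -0.21, all 30 below 0, and the 3 glands of 1 w p.i. differed widely in its mean score (0.083, -0.26 and 0.41) while those of 3 w p.i. did not (-0.16, -0.078 and -0.15). For stromal matrix the gland median was -0.089 and for fibroblast markers -0.084.

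The change in tumors minus the change in glands was called higher in 692 genes (3.20%) and lower in 357 (1.65%). This difference and the tumor change above share the 6 tumors. Among the genes named for it, the largest positive differences were those of Cldn2 (1.41 ± 0.29, adjusted p = 0.00665), Bhlha15 (1.36 ± 0.20, adjusted p = 0.000399), Emid1 (1.20), Atp6v1c2 (1.19) and Il20rb (1.09). Among the largest negative ones were the hair genes Krt25, Krt71 and Tchh, with the gland of 3 w p.i. that was high in them. Krt17, also named, scored 0.56, 0.21 and 0.57 and then 0.88, 0.77 and 0.92 in the glands (-0.998, adjusted p = 0.0353). Of the replication list 1 of 34 members was called different between tumors and glands, Tyms (0.49, adjusted p = 0.041). Of the mitosis list it was 1 of 30, Ube2c (0.74, adjusted p = 0.0364), and both shares were close to the 3.20% of all genes called higher. Of the 30 matrix genes it was Col11a1 alone (1.03, adjusted p = 0.00695). The 20 matrix genes that fell in tumors were thus not called apart from the change of the glands, where 0 of them were called.

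The same weeks in 4T1 tumors gave 55 genes (0.254%) higher and 81 (0.374%) lower, so that few genes were called within that model. The change in Py230 tumors minus that in 4T1 tumors was called higher in 2249 genes (10.4%) and lower in 1058 (4.89%). It shares the 6 Py230 tumors with the comparisons above, and the line, its luciferase, the number of cells injected and the mouse strain cannot be told apart in it. Of 34 replication genes, 24 were called higher in this difference and 0 lower. All 34 had a positive difference in Py230 tumors (median 0.24) and all 34 a negative one in 4T1 tumors (median -0.24, 0 called). Of 30 mitosis genes, 28 were called higher and 0 lower, with 30 negative differences in 4T1 tumors (median -0.54, 1 called). Aurka scored 0.45, 0.063 and 0.40 at 1 w p.i. and 0.15, -0.25 and -0.40 at 3 w p.i. in 4T1 tumors (difference of changes 0.94 ± 0.18, adjusted p = 0.00187). The 2 weeks overlapped in 4T1 and not in Py230 tumors. Without tumor 1 of Py230 at 3 w p.i., 7 of the replication genes and 10 of the mitosis genes were called higher in this difference. Over all 21650 genes, 786 were then called higher and 285 lower.

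Matrix and mast cell genes differed in the other direction. Of 30 matrix genes, 16 were called lower in the Py230 change than in the 4T1 change and 1 higher, beside 4.89% and 10.4% of all genes. In 4T1 tumors 24 of the 30 had a positive difference (median 0.11). Col6a3 scored 1.73, 1.69 and 1.73 and then 1.80, 1.97 and 1.84 in 4T1 tumors (-0.64 ± 0.15, adjusted p = 0.00828). Of 11 mast cell and eosinophil genes, 6 were called lower and 0 higher. Tpsb2 scored 0.082, 0.35 and 0.24 and then 0.82, 0.82 and 0.63 in 4T1 tumors (-1.18 ± 0.18, adjusted p = 0.000272). Among single genes, the largest positive differences were Wfdc18, a secreted protease inhibitor of the mammary gland (1.51 ± 0.24, adjusted p = 0.000321), Col11a1 (1.50), Atp6v1c2 (1.49), Bhlha15 (1.47) and Slc28a3, a nucleoside transporter (1.44). Wfdc18 scored 1.42, 1.24 and 1.36 and then 2.23, 2.07 and 1.64 in Py230 tumors and 1.88, 1.34 and 1.66 and then 1.12, 0.59 and 0.57 in 4T1 tumors. Among the largest negative ones were Ighv1-26 (-1.29), Tpsb2, Gpx3, an extracellular glutathione peroxidase (-1.17), and Mcpt4 (-1.10). Of the milk genes, 11 of 21 fell in 4T1 tumors, beside 0.374% of all genes, and 8 were called higher in the difference, beside 10.4%. Csn2 had a difference of -1.04 in 4T1 and -0.98 in Py230 tumors (difference of changes 0.060 ± 0.26, adjusted p = 0.903).

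**Figure D5:**
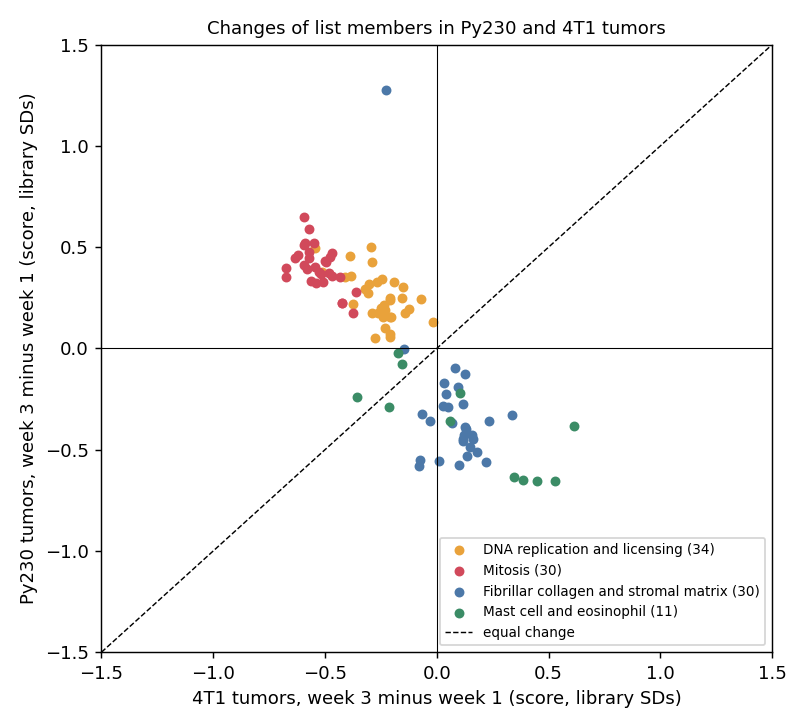
Change from 1 to 3 w p.i. of the members of 4 gene lists in 4T1 tumors (horizontal axis) and in Py230 tumors (vertical axis), both as differences in score in library SDs; each point is 1 gene, colours mark the list with the number of its genes, and the dashed line marks equal change. All replication and mitosis genes lie in the upper left, with positive differences in Py230 and negative ones in 4T1 tumors, and most matrix genes lie in the lower right, with Col11a1 at 1.28 on the vertical axis.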

How the data were processed

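RNA of 36 frozen tumors and glands, 12 groups of 3, was sequenced as stranded libraries with paired reads. The authors aligned reads to mm10 with STAR, counted them per gene with summariseOverlaps and normalized with DESeq2, and versions, annotation and strand setting of the counting are not given in the sources used here. The expression values the authors deposited are score values: the 21650 genes of every library average 0 with an SD of 1, a step the methods do not describe, so depth is unknown and a difference of scores is not a fold change. The authors' deposited tables of 4T1 against Py230 also hold mean normalized counts, used only to see which genes are low, and fold changes and p-values, which were not used. Symbols of 16266 genes came from the deposited tables and 5384 from the mm10 reference, which gave the coordinates.

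Groups came from sample titles. Scores were fitted in R 4.3.3 with limma 3.58.1, 1 mean per group over 36 libraries, with a mean-variance trend and robust moderation, with Benjamini-Hochberg adjustment of p over all genes and 0.05 as threshold. The comparisons were 3 against 1 w p.i. in Py230 tumors, glands and 4T1 tumors, and differences of these changes. No filter on low values was used. The code was tested on simulated data. Named were the 10 largest rises and falls (called, not overlapping, mean score of at least 0.5 in the higher group), up to 4 called members per list, genes of measured proteins, and the 5 largest differences of changes in each direction, with further list members named for their role or after their values had been seen. Values of some genes chosen by this rule are not reported here. The members and the 34 lists (627 genes, 7 further ones not in the table) were chosen with earlier results of these data known. Promoter sequences were taken from RefSeq tables (GRCm38.p6). Alternatives were other scalings, filters, models and sets of libraries.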

Additional observations from a re-analysis of the deposited data

Results flagged for a closer look

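The results below were taken up because 2 groups changed differently between 1 and 3 w p.i. by limma's test of the difference of changes, with 3 libraries per group. No group held enough libraries to look for single libraries far from the others.

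Between Py230 tumors and C57BL/6 Matrigel glands, 692 genes changed more upward in the tumors and 357 more downward. Of the named genes, the difference of changes was 1.41 for Cldn2, 1.36 for Bhlha15, 1.20 for Emid1, 1.19 for Atp6v1c2, 1.09 for Il20rb, 1.03 for Col11a1, 0.87 for Pik3r3, 0.87 for Sidt1 and 0.82 for Esrrg. It was -3.15 for Krt25, -3.03 for Krt71, -2.63 for Tchh and -0.998 for Krt17. The hair genes Krt25, Krt71 and Tchh were high in replicate 3 of the glands of 3 w p.i., and the part of skin in these values was not tested.

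Between Py230 and 4T1 tumors, 2249 genes changed more upward in Py230 tumors and 1058 more downward. The difference of changes was 1.51 for Wfdc18, 1.50 for Col11a1, 1.49 for Atp6v1c2, 1.47 for Bhlha15, 1.44 for Slc28a3, 1.37 for Emid1, 1.06 for Il20rb, 1.02 for Tnfrsf19, 1.02 for Cldn2, 1.01 for Pik3r3, 0.88 for Esrrg and 0.85 for Sidt1. It was -1.29 for Ighv1-26, -1.18 for Tpsb2, -1.17 for Gpx3 and -1.10 for Mcpt4. Cell line, its luciferase, the number of cells injected and mouse strain cannot be told apart in these values.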

How the results depend on the processing

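Counts of called genes are given as higher, then lower, and the cause of their moves was not tested. The 3 against 1 w p.i. comparison of Py230 tumors ranged from 693 to 4429 and from 207 to 2311 with 1 library left out, and the members of the gene lists from 9 to 88 and from 17 to 145. The glands ranged from 4 to 55 and from 1 to 13, the tumor change minus the gland change from 181 to 2372 and from 47 to 1216, and the Py230 change minus the 4T1 change from 786 to 3849 and from 285 to 2149. With only the 12 Py230 tumors and C57BL/6 glands in the fit, the counts were 1423 and 956 for Py230 tumors, 8 and 1 for the glands, 6 and 4 for the tumor change minus the gland change, and 18 and 81 for list members. With only the 6 Py230 tumors they were 2 and 1, and 0 and 0 for list members. Among genes with a mean score above 0 they were 0 and 0 for the glands and 434 higher for the tumor change minus the gland change. Cyclic loess scaling moved the tumor change minus the gland change to 543 lower. At an unadjusted p under 0.05 the counts were 4538 and 2790 for Py230 tumors, 841 and 570 for the glands, 2855 and 2022 for the tumor change minus the gland change, and 4125 and 2397 for the Py230 change minus the 4T1 change. With a replicate block, Py230 tumors gave 3105 and 1766 and the glands 10 and 5. Replicate numbers were not taken as pairs, since the deviations of libraries with the same number correlated with r of 0.047, 0.299 and 0.283 in Py230 tumors and -0.075, 0.290 and -0.098 in glands. In 4T1 tumors r was 0.46, 0.54 and -0.31. No called gene among those named changed sign under these alternatives. Of medians of the Py230 difference, that over all genes went from 0.022 to -0.0009 with cyclic loess scaling, milk from 0.010 to -0.0065 without tumor 1 of 3 w p.i. and -0.0070 with the robust line, luminal epithelium from 0.031 to -0.0023 with the robust line, and the mitochondrial genome from -0.054 to 0.049 without that tumor, 0.042 with cyclic loess and 0.039 with quantile scaling. The Py230 differences of 14 genes that were not called crossed 0: with 1 library left out they ranged from -0.15 to 0.054 for COX1, -0.20 to 0.028 for CYTB, -0.12 to 0.41 for Scd1, -0.21 to 0.32 for Fasn, -0.22 to 0.036 for Cd4, -0.19 to 0.023 for Vegfa, -0.026 to 0.026 for Tnfsf13b, -0.48 to 0.17 for Il1b, -0.50 to 0.16 for Ccl2, -0.19 to 0.054 for Tnf, -0.18 to 0.030 for Ptprc, -0.16 to 0.13 for Itgax and -0.0058 to 0.40 for Cd8a. They were 0.096 for COX1 and 0.030 for CYTB with cyclic loess, -0.025 for Fasn and -0.0016 for Itgax with the robust line, and 0.013 for Tnfsf13b and 0.0006 for Il4 with quantile scaling. The fit of library weights did not converge and gave 1 library a weight of 3136, so it was not used, and a filter on the lowest value had nothing to remove, since no lowest value is shared.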
